A study of Xenopus tropicalis with 4 samples.

Results

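The transcripts of 5 genes of the multiciliated cell programme were followed in Xenopus tropicalis animal caps (ACs) at the neurula stage NF16. The genes, called regulators below, are foxj1, rfx2, mci-like, foxn4 and cdc20b. They are the 5 gene identifiers that carry one of these symbols in the name column of the study's own differential expression lists, out of 34177 identifiers counted, 6622 with a symbol and 19371 tested. All 5 passed the filter on low counts, which asked for at least 1 read in 75% of the libraries. The H1H2Mo condition comprised 2 libraries from ACs of embryos that received translation-blocking morpholinos against suv4-20h1 and suv4-20h2, which encode the H4K20 methyltransferases. The CoMo condition comprised 2 libraries from ACs injected with the standard control morpholino, so that every embryo carried a morpholino. ACs are explants of prospective ectoderm that form a larval epidermis in culture, and each library was made from the pooled RNA of many explants without a sort for cell type. In such bulk RNA, fewer cells of a type and less RNA per cell cannot be told apart.

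Multiciliated cells (MCCs) are scattered over the larval epidermis of Xenopus and carry tufts of motile cilia. A precursor that escapes Notch-mediated lateral inhibition switches on Multicilin, a coactivator that works with E2F and DP proteins and that leads to centriole amplification and exit from the cell cycle. The forkhead factor Foxj1 and the RFX family factor Rfx2 then drive the genes of the motile axoneme, and Foxn4 is a forkhead factor known in Xenopus to act with Multicilin on the same programme. Cdc20b is a relative of the mitotic APC/C activator Cdc20. It is known in Xenopus and mouse to be needed for the release of new centrioles from the deuterosomes on which they are built. This is a step of centriole amplification, so that cdc20b is called a regulator here by grouping only. The symbol mci-like holds mci, the short name the study uses for Multicilin. The RefSeq table at hand holds the other 4 symbols and an mcidas entry, but not the symbol mci-like, so the identity of mci-like with mcidas was not checked through an identifier. In that table, which follows another assembly than the counts, ccno, mcidas and cdc20b follow each other in this order on chromosome 1, and the study's lists also place mci-like and cdc20b on chromosome 1.

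The libraries held 25877342 and 17093124 reverse-strand read pairs on genes in H1H2Mo, against 17027883 and 47375336 in CoMo. Values are given as CPM, the reads of a gene per 1000000 reads of the library after TMM scaling, and a gene is called when its Benjamini-Hochberg (BH) adjusted p from the edgeR quasi-likelihood test is under 0.05. Of all genes tested, 16.5% were called, 10.7% as lower and 5.83% as higher in H1H2Mo, and the median log2 fold change was 0.05. The transcript of the targeted suv420h1 had 89.48 and 82.57 CPM in H1H2Mo against 109.4 and 123.4 CPM in CoMo and was not called. That of suv4-20h2, listed as kmt5c, had 147.6 and 171.7 CPM in H1H2Mo against 47.78 and 58.29 CPM in CoMo and was called higher. A translation block need not lower the transcript, so these levels do not check the labels. The tissue label was checked against markers: the epidermal keratin xk81a1 was at 660.5 CPM or more in each library. It was itself called lower, with 943.4 and 660.5 CPM in H1H2Mo against 2262 and 2415 CPM in CoMo. Of the 7 epidermal genes listed, krt12 and krt19 were called lower as well, and 4 were not called. The neural markers ncam1 and tubb3 together reached 1.912 and 2.961 CPM in H1H2Mo and 75.3 and 13.41 CPM in CoMo.

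The 5 regulators did not move as a block. foxj1 and rfx2 tended to lower values in H1H2Mo, mci-like and cdc20b to higher values, and foxn4 had the same mean in both conditions. None of the 5 was called by the edgeR quasi-likelihood test, against 16.5% of all genes. Only parts of the study's lists were at hand, and the part for this same comparison favours genes with a small p. None of the 5 symbols came from that part, so that the absence of calls is partly fixed by the naming. They came from the parts for the study's rescue comparisons. These set the morpholinos with mRNA of the demethylase PHF8 against PHF8 mRNA alone, and so differ by the same morpholinos. What this source of the names did to the counts below was not tested. At an unadjusted p under 0.05 stood 3 of the 5, foxj1, mci-like and cdc20b, against 29.8% of all genes. DESeq2 and 4 other settings called 1 of the 5, mci-like, with DESeq2 against 24.4% of the 15991 genes to which it gave an adjusted p. The CPM ranges of the conditions did not overlap for these same 3 genes, which is close to the 59.5% of all genes without overlap. Of the 3197 genes called, 3195 differed by 1 log2 unit or more, so that differences of the size seen for foxj1, rfx2 and cdc20b were rarely called. The p-values rest on the spread between 2 samples per condition, drawn towards a trend that all genes share. The study calls such samples biological replicates and reports 3 of them, whereas 2 per condition are used here.

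**Figure D1:**
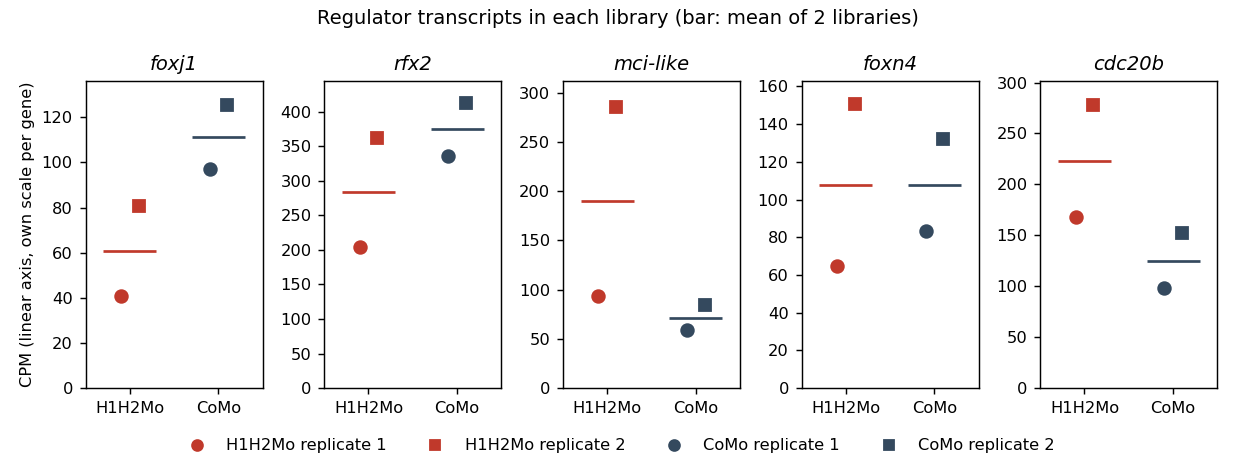
CPM of each regulator in the 2 H1H2Mo and the 2 CoMo libraries (circle, replicate 1; square, replicate 2; bar, mean of the 2 libraries), on a linear axis with its own scale per gene. For all 5 genes replicate 2 lies above replicate 1 in both conditions, and the H1H2Mo and CoMo points are separate for foxj1, mci-like and cdc20b.

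foxj1 (gene17210, chromosome 10), the forkhead factor of motile ciliogenesis, had 40.66 and 80.5 CPM in the H1H2Mo libraries and 96.91 and 125.3 CPM in the CoMo libraries. Both H1H2Mo libraries thus lay below both CoMo libraries, with a mean of 60.6 ± 28.2 CPM in H1H2Mo and 111 ± 20.1 CPM in CoMo (SD, n = 2 each). These values rest on 1127 and 1441 reads in H1H2Mo and 1588 and 5496 reads in CoMo. The log2 fold change was -0.88 with a standard error of 0.38 and a 95% interval from -1.69 to -0.06 (BH-adjusted p = 0.14, edgeR quasi-likelihood test). The gap was set mainly by H1H2Mo 1: without this library the log2 fold change was -0.47, and without H1H2Mo 2 it was -1.45. In both of these fits the lone H1H2Mo library is assumed to vary as the CoMo pair does.

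rfx2 (gene265, chromosome 1) encodes a factor that binds the X-box motifs of ciliary genes. It had 204.6 and 361.9 CPM in H1H2Mo, against 335.9 and 412.8 CPM in CoMo, so that H1H2Mo 2 lay between the CoMo libraries. The means were 283 ± 111 CPM in H1H2Mo and 374 ± 54.4 CPM in CoMo (SD, n = 2 each). The log2 fold change of -0.40 had a standard error of 0.38 and a 95% interval from -1.22 to 0.41 (BH-adjusted p = 0.52, edgeR quasi-likelihood test). The interval leaves room for a loss of more than 1 log2 unit as well as for a small gain. Without H1H2Mo 1 the log2 fold change was -0.05, and without H1H2Mo 2 it was -0.87.

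mci-like (gene4617, chromosome 1) had 93.66 and 285.5 CPM in H1H2Mo and 58.83 and 84.25 CPM in CoMo. Every H1H2Mo value was above every CoMo value, yet H1H2Mo 1 exceeded CoMo 2 by only 0.15 on the log2 scale, while H1H2Mo 2 exceeded CoMo 1 by 2.28. The means were 190 ± 136 CPM in H1H2Mo and 71.5 ± 18 CPM in CoMo (SD, n = 2 each). Its log2 fold change was 1.40 with a standard error of 0.46 and a 95% interval from 0.40 to 2.41, just short of the threshold (BH-adjusted p = 0.057, edgeR quasi-likelihood test). It was called under 5 of the 7 other settings planned for 4 libraries: with DESeq2 (adjusted p = 0.019), RLE normalization (0.044), no filter (0.0018), unstranded counts (0.045) and a replicate block (0.023), all but the first by edgeR. It was not called with a filter of 10 reads in 2 libraries (0.074) or at equal depth (0.08). The result turned on H1H2Mo 2: the log2 fold change was 0.39 without this library and 2.00 without H1H2Mo 1. It was 1.18 without CoMo 1 and 1.70 without CoMo 2. In each of these fits the lone library is assumed to vary as the pair of the other condition does. Of the 1000 genes nearest to mci-like in mean log2 CPM, 124 differed at least as much between the conditions, and 120 of these were called. mci-like therefore stands among the few genes of its level with such a difference and no call, and it is also the regulator with the widest gap between the H1H2Mo libraries.

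foxn4 (gene6240, chromosome 1) had 64.87 and 150.8 CPM in H1H2Mo, and 83.24 and 132.3 CPM in CoMo. The H1H2Mo values enclosed the CoMo values, and the means were 108 ± 60.7 CPM in H1H2Mo and 108 ± 34.7 CPM in CoMo (SD, n = 2 each). The log2 fold change was 0.00 with a standard error of 0.41, and the 95% interval from -0.90 to 0.90 does not exclude a change of nearly 1 log2 unit in either direction (BH-adjusted p = 1.0, edgeR quasi-likelihood test). Its sign depended on the library left out: it was 0.48 without H1H2Mo 1, 0.38 without CoMo 2, -0.28 without CoMo 1 and -0.73 without H1H2Mo 2.

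cdc20b (gene19115, chromosome 1) had 167.8 and 278.1 CPM in H1H2Mo, against 98.01 and 151.9 CPM in CoMo. All H1H2Mo values were above all CoMo values, with H1H2Mo 1 above CoMo 2 by 0.14 on the log2 scale. The means were 223 ± 78 CPM in H1H2Mo and 125 ± 38.1 CPM in CoMo (SD, n = 2 each), from 4652 and 4979 reads in H1H2Mo and 1606 and 6661 reads in CoMo. The log2 fold change of 0.83 had a standard error of 0.37 and a 95% interval from 0.02 to 1.65 (BH-adjusted p = 0.16, edgeR quasi-likelihood test). Same-numbered libraries gave log2 differences of 0.78 and 0.87, the closest of the 5 genes. The other matching gave 0.14 for H1H2Mo 1 over CoMo 2 and 1.5 for H1H2Mo 2 over CoMo 1. Whether the replicate numbers pair the libraries is not known. Without H1H2Mo 1 the log2 fold change of cdc20b was 1.15, and without H1H2Mo 2 it was 0.42. It was 0.57 without CoMo 1 and 1.2 without CoMo 2. In each of these fits the lone library is assumed to vary as the pair of the other condition does.

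**Figure D2:**
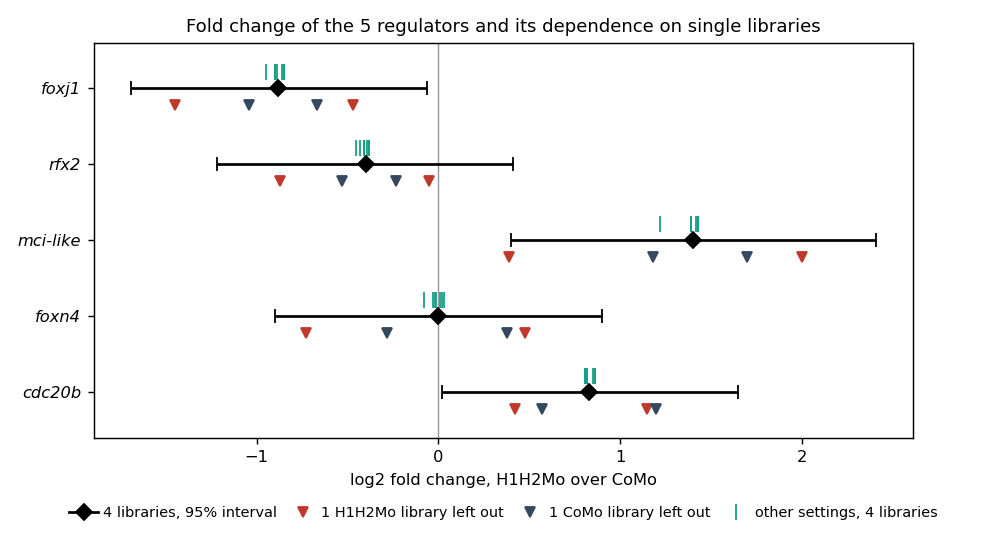
Log2 fold change of H1H2Mo over CoMo for each regulator (diamond with 95% interval, edgeR quasi-likelihood fit of the 4 libraries), with 1 library left out (triangles, red for H1H2Mo and dark for CoMo) and under the other settings tried with 4 libraries (ticks). Leaving out H1H2Mo 1 or H1H2Mo 2 moves mci-like between 2.00 and 0.39 and foxn4 between 0.48 and -0.73, while the other settings move them little.

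The difference between the libraries of 1 condition was then set against other genes of like CPM, since it decides how firmly the fold changes can be read. In H1H2Mo, replicate 2 exceeded replicate 1 for all 5 genes. The log2 ratio of H1H2Mo 2 to H1H2Mo 1 was 1.61 for mci-like (3.05-fold), 1.22 for foxn4 (2.32-fold), 0.98 for foxj1 (1.98-fold), 0.82 for rfx2 (1.77-fold) and 0.73 for cdc20b (1.66-fold). Among the 1000 genes nearest in mean log2 CPM, the SD of this ratio was 0.63 to 0.66 and its median 0.10 to 0.19. By absolute size, the split of mci-like lay at the 98.1st percentile of these genes and that of foxn4 at the 94.4th. The splits of foxj1 at the 88.2nd, rfx2 at the 81.7th and cdc20b at the 76.5th percentile were less extreme. No test is attached to these percentiles, because each condition offers a single pair of libraries.

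The CoMo libraries were ordered in the same way. The log2 ratio of CoMo 2 to CoMo 1 was 0.52 for mci-like, 0.67 for foxn4, 0.37 for foxj1, 0.30 for rfx2 and 0.63 for cdc20b, in each case smaller than the H1H2Mo ratio of the same gene. The SD of this ratio among genes of like CPM was also smaller, 0.40 to 0.44. Against that spread, cdc20b and foxn4 stood at the 87.5th and 87.1st percentile by absolute size, mci-like at the 78.9th, foxj1 at the 63.5th and rfx2 at the 59.2nd. cdc20b was thus the gene whose split was nearly equal in both conditions. Replicate 2 was the higher library in both conditions for 5 of 5 regulators, against 23.5% of all genes tested and 31.3% to 39.2% of the genes of like CPM. CoMo 2 was the deepest library and H1H2Mo 2 one of the 2 shallowest, and a link of depth to the shared order was not tested.

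**Figure D3:**
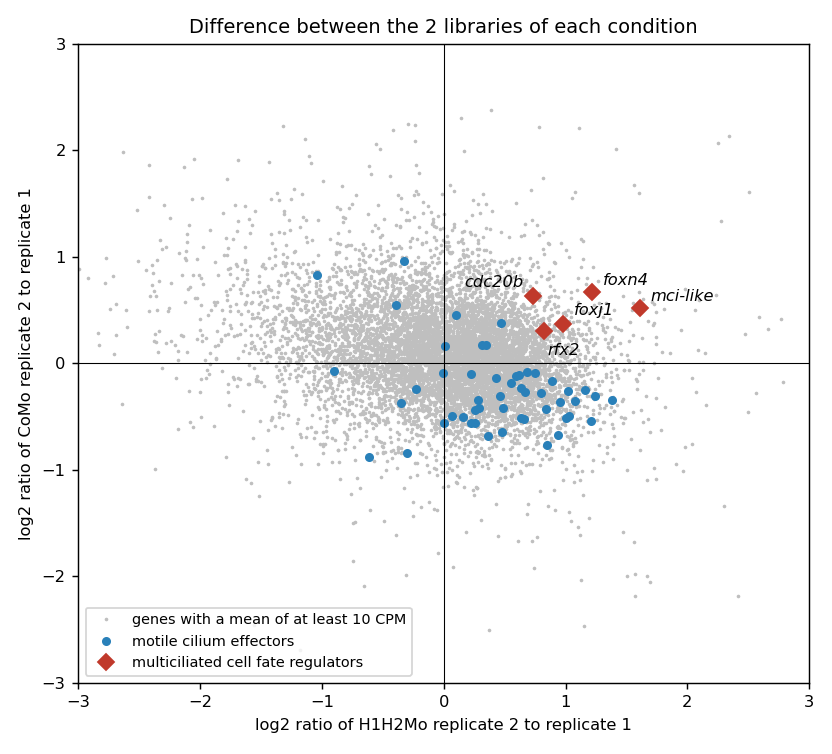
Log2 ratio of replicate 2 to replicate 1 in H1H2Mo (horizontal) and in CoMo (vertical) for 8762 genes with a mean of at least 10 CPM (grey; 25 lie outside the axes), the 51 motile cilium effectors (blue) and the 5 regulators (red). The regulators all lie in the upper right quadrant, with mci-like farthest to the right at 1.61, whereas most effectors lie to the lower right.

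Because all 5 regulators were higher in replicate 2, their ratios within a library were compared next, which also removes the scaling of the libraries. Of the 10 ratios between 2 regulators, which share 5 genes, 8 did not overlap between H1H2Mo and CoMo. Over all pairs of genes tested the share without overlap was 59.0%, and over all pairs of genes with a mean of at least 10 CPM it was 69.7%, so that 8 of 10 is no result about the regulators. An exact two-sided permutation test of 2 against 2 libraries cannot give a p below 0.33, which each of these 8 reached (0.42 after BH adjustment over the 10 ratios), so they are descriptions. The largest difference was that of foxj1 to mci-like, with a log2 ratio of -1.20 and -1.83 in H1H2Mo against 0.72 and 0.57 in CoMo. In CoMo foxj1 thus had more reads than mci-like in both libraries, and in H1H2Mo fewer in both. Gene lengths were not used, so the sign of this ratio does not compare the levels of the 2 genes. The log2 ratio of foxj1 to cdc20b was -2.04 and -1.79 in H1H2Mo, against -0.02 and -0.28 in CoMo. That of rfx2 to mci-like was 1.13 and 0.34 in H1H2Mo and 2.51 and 2.29 in CoMo. The gaps between the conditions, -2.16, -1.77 and -1.67 on the log2 scale, were each larger than the gap between the libraries of either condition.

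The ratios of foxj1 to rfx2 and of mci-like to cdc20b, genes with the same tendency, shifted less. This follows from their fold changes and is no separate result. The log2 ratio of foxj1 to rfx2 was -2.33 and -2.17 in H1H2Mo, and -1.79 and -1.72 in CoMo, a difference of -0.49. mci-like to cdc20b gave -0.84 and 0.04 in H1H2Mo and -0.74 and -0.85 in CoMo, and these overlapped. mci-like to foxn4, both of which had a wide split in H1H2Mo, gave 0.53 and 0.92 in H1H2Mo, against -0.50 and -0.65 in CoMo. The ratio of rfx2 to foxn4, genes not described as sharing a tendency, was the other one that overlapped. Its difference of -0.37 was the smallest in size of all pairs, so a small shift was not particular to genes with the same tendency. A ratio of 2 genes shows that they changed unequally and does not tell which of them moved.

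**Figure D4:**
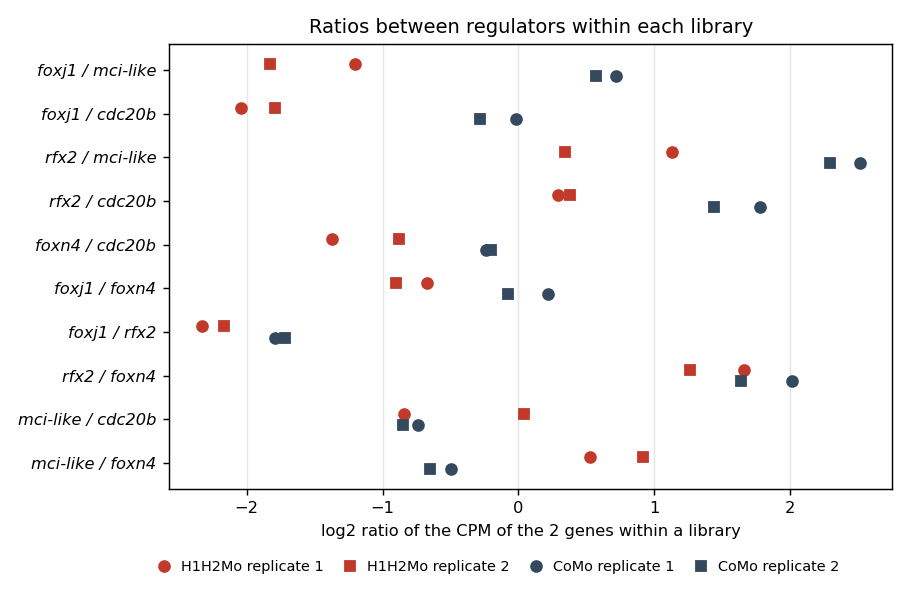
Log2 ratio of the CPM of 2 regulators within a library for all 10 pairs (red, H1H2Mo; dark, CoMo; circle, replicate 1; square, replicate 2), ordered by the difference between the conditions. The red and dark points are separate for 8 pairs (against 69.7% of all pairs of genes with a mean of at least 10 CPM), most widely for foxj1 to mci-like (-1.20 and -1.83 in H1H2Mo against 0.72 and 0.57 in CoMo), and overlap for rfx2 to foxn4 and mci-like to cdc20b.

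The genes whose pattern over the 4 libraries was nearest to each regulator were looked up among 5451 genes with a symbol and a mean of at least 50 counts, by the Euclidean distance of mean-centred log2 CPM. With 4 libraries such likeness is easily met and describes these libraries only. For mci-like the nearest was e2f7, an atypical E2F repressor, at a distance of 0.20, followed by zmcm3, a Xenopus MCM helicase subunit, and pdgfa, a growth factor ligand, both at 0.29. e2f7 had 97.38 and 312.2 CPM in H1H2Mo against 73.84 and 97.61 CPM in CoMo, with the same high value in H1H2Mo 2 alone. For foxj1 the nearest was ccp110 at 0.11, which encodes a centriolar cap protein, then u2af1 at 0.15, a splicing factor, and nr6a1 at 0.17, a nuclear receptor. The nearest to rfx2 were uba2, fbxo3 and rbm12, at 0.03 to 0.08. Those of foxn4 were LOC100170590, the adhesion molecule cadm1 and a gene model with a provisional name, at 0.10 to 0.16. For cdc20b they were dhtkd1, the BMP signal transducer smad1 and the ribosome biogenesis factor pes1, at 0.18 to 0.19. Of these 15 genes pdgfa was called (log2 fold change 1.49, BH-adjusted p = 0.028, edgeR quasi-likelihood test). The regulators were not each other's nearest neighbours: cdc20b ranked 46th for mci-like, and rfx2 149th for foxj1.

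Genes of the same families and partners were examined as a list of 11 E2F, DP, MYB, p73, RFX and FOXN relatives. Of these, 1 was called lower, 2 were called higher and 8 were not called, with a median log2 fold change of 0.15 (0.05 over all genes). Over all genes tested, 10.7% were called lower and 5.83% higher. The part at hand of the study's list for this same comparison, which favours genes with a small p, gave the symbol of 2 of the 11. tp73, whose product acts upstream of Foxj1 in mouse MCCs, fell to 14.36 and 27.88 CPM in H1H2Mo, against 98.86 and 98.73 CPM in CoMo (log2 fold change -2.23, BH-adjusted p = 0.0016, edgeR quasi-likelihood test). e2f8, a repressor of E2F targets, rose to 132.1 and 63.46 CPM in H1H2Mo, against 27.95 and 37.24 CPM in CoMo. mybl2, a MYB factor of cycling cells, rose to 260.6 and 251.2 CPM in H1H2Mo, against 75 and 132.6 CPM in CoMo. The log2 fold changes were 1.58 for e2f8 and 1.30 for mybl2 (BH-adjusted p = 0.015 and 0.028, edgeR quasi-likelihood test). tfdp1, the DP partner in the complex of Multicilin with E2F proteins, was not called at -0.46. Fewer of the 11 were called without CoMo 1 or without CoMo 2, and more without H1H2Mo 1. The number called among all genes tested moved the same way in these fits.

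Upstream of mci-like, 22 identifiers of the Notch pathway were tested, of which 7 were called lower, 6 higher and 9 neither, with a median log2 fold change of 0.44. Over all genes 10.7% were called lower and 5.83% higher, but 10 of the 22 owe their symbol to the study's list for this same comparison, so that the share called is partly fixed by the naming. Among the ligands, dll1, which marks MCC precursors as they are selected, rose to 426.9 and 508.9 CPM in H1H2Mo, against 188.4 and 196.4 CPM in CoMo (log2 fold change 1.28, BH-adjusted p = 0.023, edgeR quasi-likelihood test). The ligands dll4, jag1 and jag2 were called lower, with log2 fold changes of -3.02, -1.59 and -2.70. Of the receptors, notch1 was not called: it had 623.3 and 207.3 CPM in H1H2Mo and 131.8 and 308.6 CPM in CoMo, with H1H2Mo 1 the high library, unlike the regulators. The symbol notch2 stands for 2 identifiers, of which gene31572 fell to 21.4 and 28.04 CPM in H1H2Mo, against 124.3 and 114.4 CPM in CoMo, and gene7527 was not called at 0.29. The coactivator maml1 and the gamma-secretase subunit ncstn were called higher, at 1.54 and 1.39. maml3, of the same family as maml1 and named after its values were seen, was called lower at -1.73. Fewer of the 22 were called without CoMo 1 or without CoMo 2, and more without H1H2Mo 2. The number called among all genes tested moved the same way in these fits.

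Downstream, the regulators were set beside the genes that carry out their programme. Of 30 genes of centriole amplification and the basal body, 13 were called lower, none higher and 17 neither. The shares over all genes tested were 10.7% lower and 5.83% higher. The median log2 fold change of the 30 was -0.88, and 7 of the 30 owe their symbol to the study's list for this comparison. Those with the smallest p were cep89 (-2.33), poc5 (-2.18), cep164 (-1.96) and cep83 (-1.97), of which cep89, cep164 and cep83 encode proteins of the distal appendages that dock basal bodies. Of the genes named as partners of the regulators, ccdc67, the deuterosome scaffold also known as deup1, was at -0.21, cep152 at -0.23 and the kinase plk4 at -0.75, none of them called. ccdc78, also a deuterosome gene and named after its values were seen, was called lower at -1.97 (BH-adjusted p = 0.041, edgeR quasi-likelihood test), from at most 3.967 CPM in a library. ccdc67 had 29.69 and 81.0 CPM in H1H2Mo against 59.56 and 67.99 CPM in CoMo, with a gap between the H1H2Mo libraries like that of mci-like and foxn4. In all, 28 of the 30 genes were higher in H1H2Mo 2 than in H1H2Mo 1, with a median log2 ratio of 0.81. In CoMo, 17 were higher in CoMo 2 than in CoMo 1, with a median of 0.01. Of all 19371 genes tested, 9770 were higher in H1H2Mo 2 and 10076 in CoMo 2. Fewer of the 30 were called lower without CoMo 1 or without CoMo 2, and fewer of all genes tested were called in these fits too.

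Of 51 motile cilium effectors, 48 were called lower, none higher and 3 neither, with a median log2 fold change of -2.09. Over all genes tested, 10.7% were called lower and 5.83% higher. Of the 51, 46 owe their symbol to the part at hand of the study's list for this same comparison, which favours genes with a small p. The count of effectors called is thus partly fixed by the naming. tekt3, a tektin of the axoneme, fell to 7.865 and 6.368 CPM in H1H2Mo, against 158.1 and 88.26 CPM in CoMo. drc1, a subunit of the nexin-dynein regulatory complex, and armc3 had log2 fold changes of -3.81 and -3.15 (BH-adjusted p = 0.00012 and 0.00014, edgeR quasi-likelihood test). The 3 effectors not called were arl13b (-1.03), ift172 (-0.93) and cfap44 (-0.61), named after their values were seen. Fewer of the 51 were called lower without CoMo 1, and fewer of all genes tested were called in that fit too.

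The effectors and the regulators were set side by side in 2 respects. The first is the fold change, in which a gap is partly built in. Of the 51 effectors, 46 were named through the part at hand of the study's list for this comparison, and none of the regulators was. The median log2 CPM of the effectors minus that of mci-like was -2.35 and -3.21 in H1H2Mo, against 1.11 and 0.26 in CoMo, a difference of -3.46. For cdc20b this difference was -3.07, and for foxj1, the nearest to the effectors, it was -1.30, with -1.15 and -1.38 in H1H2Mo and 0.39 and -0.32 in CoMo. The second is the order of the CoMo libraries: 8 of the 51 effectors were higher in CoMo 2 than in CoMo 1, with a median log2 ratio of -0.31, whereas 5 of the 5 regulators were. In H1H2Mo the order was shared, with 42 of the 51 effectors higher in H1H2Mo 2 and a median log2 ratio of 0.47. Of all 19371 genes tested, 9770 were higher in H1H2Mo 2 and 10076 in CoMo 2. Neither contrast was tested across samples.

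**Figure D5:**
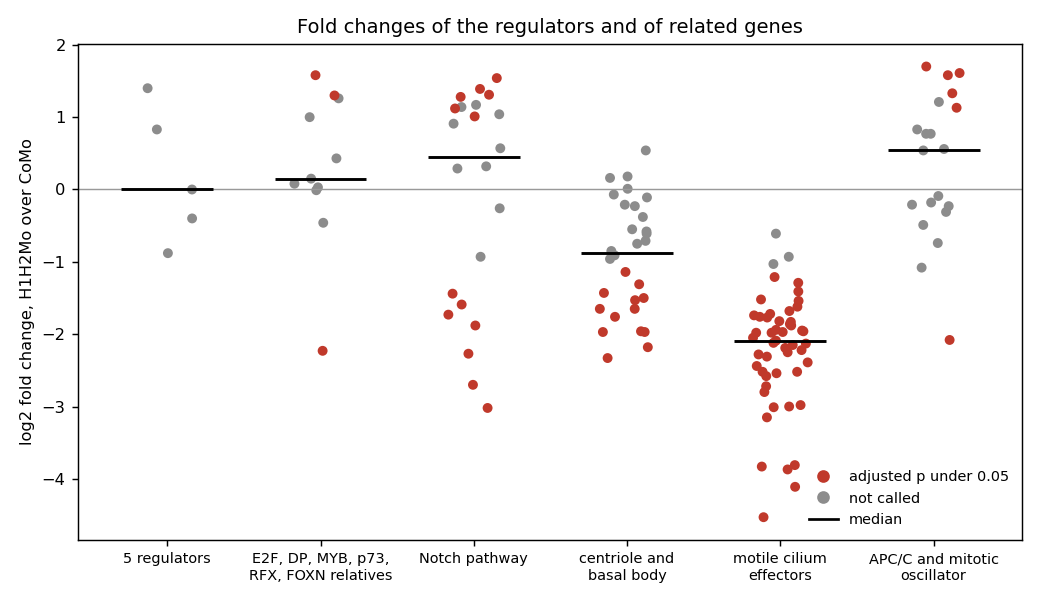
Log2 fold change of H1H2Mo over CoMo for the 5 regulators and for each gene of the 5 related lists (red, adjusted p under 0.05 in the edgeR quasi-likelihood test; grey, not called; bar, median). The regulators spread from -0.88 to 1.40 with none called, while 48 of the 51 motile cilium effectors are called lower around a median of -2.09. This contrast is partly built in. Of the 51 effectors, 46 owe their symbol to the study's list for this same comparison, and none of the regulators does. Of all genes tested, 10.7% are called lower.

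cdc20b was also set beside the cell cycle machinery that its paralog belongs to. Of 20 genes of the APC/C and the mitotic oscillator, 1 was called lower, 5 higher and 14 neither. The shares over all genes tested were 10.7% lower and 5.83% higher. The median log2 fold change of the 20 was 0.55, and 4 of the 20 owe their symbol to the study's list for this comparison. The APC/C activators themselves were not called: cdc20 had 153.7 and 307.4 CPM in H1H2Mo, against 279.3 and 242.6 CPM in CoMo, and fzr1 had a log2 fold change of -0.09. The checkpoint kinase bub1 and the cyclin ccnb2 were called higher at 1.70 and 1.61 (BH-adjusted p = 0.0045 and 0.0087, edgeR quasi-likelihood test). ccna1 was called lower at -2.08 (BH-adjusted p = 0.0015, edgeR quasi-likelihood test). Of the cell cycle genes, 16 of 20 were higher in H1H2Mo 2 than in H1H2Mo 1, with a median log2 ratio of 0.28. In CoMo, 9 of 20 were higher in CoMo 2 than in CoMo 1. The counts over all 19371 genes tested were 9770 for H1H2Mo 2 and 10076 for CoMo 2. Fewer of the 20 were called without CoMo 1 or without CoMo 2, and more without H1H2Mo 2. The number called among all genes tested moved the same way in these fits.

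Markers of the other cell types in the AC epidermis also differed between the conditions, and their part in the values above was not tested. Both goblet cell markers (itln1 and itln2) were called lower, with summed levels of 189.3 and 62.62 CPM in H1H2Mo against 962.4 and 446.6 CPM in CoMo. All 3 markers of small secretory cells were called lower, with sums of 21.11 and 37.6 CPM in H1H2Mo against 1511 and 1089 CPM in CoMo. Of 9 ionocyte genes, 5 were called lower and 1 higher, with sums of 253.3 and 455.6 CPM in H1H2Mo against 766.6 and 538.7 CPM in CoMo. The basal cell marker tp63 was called lower, at 67.14 and 125.2 CPM in H1H2Mo against 279.2 and 493.0 CPM in CoMo, and 3 of 7 epidermal genes were called lower, with sums of 3144 and 2365 CPM in H1H2Mo against 5812 and 5767 CPM in CoMo. Both neural markers were called lower. The endoderm marker sox17a was not called, at 17.75 and 3.184 CPM in H1H2Mo against 1.77 and 4.402 CPM in CoMo, with H1H2Mo 1 the high library. Over all genes 10.7% were called lower. All the goblet, small secretory, basal and neural markers, 5 of the 9 ionocyte genes and 3 of the 7 epidermal genes owe their symbol to the study's list for this same comparison, so that these counts are partly fixed by the naming. No marker of these lists was at 0 reads in a library. Like the 5 regulators, tp63 was higher in replicate 2 in both conditions, while both goblet cell markers were lower in replicate 2 in both conditions.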

How the data were processed

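RNA-seq counts of 4 libraries of X. tropicalis ACs at NF16 were analysed. The authors aligned paired-end reads of rRNA-depleted, directional libraries to assembly v9.1 with STAR 2.7.1a and deposited the counts per gene of the same run, not normalized, for either strand and for each strand. The reverse-strand counts were used, which made up 97.5% to 98.18% of stranded reads. Reads mapping to several places (6.81% to 8.11% of read pairs) are not in them. A row naming no gene (0.067% to 0.242% of counts) was left out.

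TMM normalization and the quasi-likelihood test of edgeR 4.0.16 (R 4.3.3) were applied to the 19371 genes tested, with BH adjustment over all of them. A standard error is the size of a log2 fold change over the square root of its F. Single-library log2 CPM carries a prior count of 2. Exact permutation tests were run in SciPy 1.17.1. The scripts were tested on simulated counts. Between replicate libraries, chi-square per degree of freedom was 147.8 in H1H2Mo and 102.8 in CoMo, so that neither pair is 1 library deposited repeatedly. Depth sets less of the error than the 2 samples per condition do.

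Alternatives were DESeq2 1.42.0, RLE normalization, other filters (any read in any library, or 10 reads in 2 libraries), unstranded counts, equal depth, a replicate block, 500 instead of 1000 nearest genes, and each library left out in turn. After the data were seen, crossed pairs as a block, a prior count of 0.5 and the list counts without each library were added. The members and the lists were chosen with earlier results of these data known.

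Named beside the 5 regulators were the morpholino targets and, per list, each called gene where at most 4 were called, otherwise the 4 with the smallest p (2 per direction where both occurred). Also named were ccdc67, cep152, plk4, tfdp1, tp73, dll1, notch1, jag1, jag2, cdc20 and fzr1 as known partners or relatives, and the 3 genes nearest in pattern to each regulator. A further gene that this rule names is not reported here. Symbols were known for 6391 of the genes tested, mostly ones with small p-values, since only parts of the study's lists were at hand. Gene lengths, coordinates and promoter sequences were not used here, so levels are compared between conditions and not between genes.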

Additional observations from a re-analysis of the deposited data

Results flagged for a closer look

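The counts of the opposite (forward) strand were not used in any comparison. For 3 regulators, more than 3 such reads lay on the gene in each H1H2Mo library, and their rate per 1000000 reverse-strand reads of the library was higher in both H1H2Mo libraries than in both CoMo libraries. For rfx2 the rate was 0.541 and 0.468 in H1H2Mo, against 0.411 and 0.338 in CoMo. For mci-like it was 0.541 and 0.351 in H1H2Mo, against 0.0587 and 0.232 in CoMo. For cdc20b it was 0.232 and 0.234 in H1H2Mo, against 0.117 and 0.0422 in CoMo. These rates rest on 14 and 8 reads in H1H2Mo and 7 and 16 in CoMo for rfx2, 14 and 6 in H1H2Mo and 1 and 11 in CoMo for mci-like, and 6 and 4 in H1H2Mo and 2 and 2 in CoMo for cdc20b. The other regulators did not share this order: foxn4, with the most such reads, had 0.889 and 0.527 in H1H2Mo against 0.94 and 1.31 in CoMo, and foxj1 had 0.386 and 0.0585 in H1H2Mo against 0.235 and 0.148 in CoMo. Whole libraries, however, had the order of the first 3: reverse-strand reads made up 97.5% and 97.99% of stranded reads in H1H2Mo, against 98.18% and 98.03% in CoMo. The order is therefore not particular to these regulators, and the share of all genes that have it was not counted. As a share of the stranded reads of the gene, the conditions overlapped for rfx2, mci-like and cdc20b. The forward reads amount to at most 0.536% of the stranded reads of these 3 genes in any library, and the difference between the conditions was not tested.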

How the results depend on the processing

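mci-like was the one regulator called with all 4 libraries under another planned setting. Its log2 fold change and adjusted p were 1.43 and 0.019 with DESeq2, 1.43 and 0.044 with RLE normalization, 1.39 and 0.0018 with no filter beyond 1 read in any library, 1.39 and 0.045 with unstranded counts, and 1.22 and 0.023 in a replicate block (edgeR quasi-likelihood test with BH adjustment except for DESeq2). The number of regulators called was 1 under each of these settings. Over all genes tested, the deviations of same-numbered libraries had a correlation of -0.13. With 1 pair of libraries per condition, this does not settle whether the replicate numbers pair the libraries. The replicate block changed no other call among the 5, with 3280 genes called. With crossed pairs, added after the data were seen, 2 regulators and 4844 genes were called. The H1H2Mo log2 split of rfx2 moved to 0.88 with unstranded counts, and the percentile of its CoMo split to 62.6 with 500 nearest genes.

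With 1 library left out, only the remaining pair shows the spread between replicates, which the fit again draws towards the trend of all genes. The genes called ranged from 490 to 4376, and the regulators called from 0 to 2. Log2 fold changes spanned -1.45 to -0.47 for foxj1, -0.87 to -0.05 for rfx2, 0.39 to 2.00 for mci-like, -0.73 to 0.48 for foxn4 and 0.42 to 1.2 for cdc20b. Called lower were 0 to 1 and called higher 0 to 4 of the family relatives. For the Notch pathway the ranges were 3 to 7 lower and 0 to 11 higher, and for the APC/C and mitotic genes 0 to 5 lower and 0 to 6 higher. Called lower were 0 to 19 of the centriole and basal body genes and 14 to 49 of the motile cilium effectors. The cause of these shifts beyond the change of the spread was not tested. The planned search for promoter motifs was not run. Each regulator had at least 964 reads in a library, so that depth limits these values less than the 2 samples per condition.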
